A study of Mus musculus with 4 samples.

Results

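A set of 10 semaphorin signalling genes was followed through the cells of the mouse sciatic nerve: the semaphorins Sema3b, Sema3c, Sema3d, Sema3e, Sema4f, Sema6d and Sema7a, the neuropilins Nrp1 and Nrp2, and the plexin Plxna4. They were taken by gene name, and were 10 of the 22716 genes listed in any of 4 Drop-seq libraries, in which single cells are captured in droplets with barcoded beads and each counted transcript carries a unique molecular identifier (UMI). One library came from the distal nerve segment of adult wild-type CD1 mice 3 days after the nerve was resected (3 DPI), 1 from uninjured nerve of adult CD1 mice, and 2 from neonatal CD1 nerve, of which 1 was sorted by flow cytometry at postnatal days 3 to 4 (neonatal FACS) and 1 was cleared with myelin removal beads at postnatal days 2 to 3 (neonatal beads). Both adult libraries were also cleared with myelin removal beads. Cells of all 4 libraries were freed with collagenase and trypsin; the number of animals behind each library was not given in the sources used for this work. All 10 genes were listed at 3 DPI and in the neonatal beads library, and 9 in each of the other libraries, where Sema4f had no entry and was taken as 0 UMIs.

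Semaphorins are secreted or membrane-bound guidance cues that steer growing axons, vessels and migrating cells. The class 3 semaphorins (Sema3b to Sema3e here) are secreted, and most of them bind a neuropilin, which has little signalling capacity of its own and pairs with a class A plexin such as Plxna4 that carries the signal into the cell. Sema3e is the exception and binds Plxnd1 directly. Sema4f and Sema6d span the membrane, and Sema7a is held at the surface by a GPI anchor and binds integrins and Plxnc1. Nrp1 and Nrp2 also bind vascular endothelial growth factors, Nrp1 mainly with Kdr and Nrp2 mainly with Flt4.

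After filtering, 2162 of 2500 barcodes were kept at 3 DPI, 1837 of 2000 in uninjured nerve, 2191 of 2500 in the neonatal FACS library and 5420 of 6200 in the neonatal beads library, with a median of 994 to 1791 UMIs per cell, and the libraries held between 4513814 and 8123103 UMIs in all. Cells were clustered with the semaphorin, plexin and neuropilin genes left out of the clustering, and clusters were named from marker genes, so that the classes were not defined by the genes described. The classes were Schwann-like, endoneurial-like, epineurial/perineurial-like, endothelial-like, vascular smooth muscle (VSM)/pericyte-like and immune-like, plus, at 3 DPI, 482 mesenchymal cells of 2 clusters that were assigned to no layer and are called other mesenchymal-like. Their epineurial markers summed to 1079 CPM, against 5990 CPM in epineurial/perineurial-like cells of that library, and their endoneurial markers to 245 CPM, against 1627 CPM in endoneurial-like cells. Levels are given as CPM, the UMIs of a gene per 1000000 UMIs of the cells of a class, and as the share of those cells with at least 1 UMI. With 1 library for each condition there was no test between conditions, and all intervals given are exact 95% intervals of counting error alone. A difference in a class can reflect another mix of cells within it as well as another level per cell. As a measure of RNA from other cells, UMIs of Pecam1, an adhesion molecule of endothelial cells, were held by 3.62% of Schwann-like cells (median 983 UMIs) and 4.33% of endoneurial-like cells (median 2178 UMIs) in uninjured nerve, and at 3 DPI by 3.55% (median 1966 UMIs) and 6.18% (median 4107 UMIs), against 79.8% of the 3 DPI endothelial-like cells (median 1953 UMIs). At most 1 barcode was shared by any pair of libraries.

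Of the pairs of a gene and a class with at least 50 cells, 44 of 70 had a UMI in at least 2% of cells at 3 DPI, 31 of 50 in uninjured nerve, 35 of 60 in the neonatal FACS library and 22 of 50 in the neonatal beads library. Classes were compared across the 4 libraries with edgeR's quasi-likelihood test on UMIs summed by class and library, each class against the mean log level of the other classes, with Benjamini-Hochberg adjustment over 11828 genes. Sema4f was too low to test, which left 9 of the 10 genes. At an adjusted p of 0.05, 6 of the 9 were higher in Schwann-like cells, a class in which 16.6% of all genes tested were called higher, and 2 were in endoneurial-like cells (15.4% of all genes). Epineurial/perineurial-like and endothelial-like cells had 4 each (17.4% of all genes in both), and VSM/pericyte-like (11.5%) and immune-like cells (14%) had 0. For the last 2 classes the count was also 0 at an unadjusted p of 0.05 and with DESeq2. Because that mean is taken over log levels, a class near 0 lowers it. The other mesenchymal-like cells of 3 DPI (482 cells) were in neither this comparison nor the next. The immune-like cells of uninjured nerve (19 cells) and of the neonatal beads library (38 cells) were also left out of both. Against the summed UMIs of the other tested classes of the same library, 9 of the 16 calls were kept. Schwann-like (12.8% of all genes called), epineurial/perineurial-like (10.9%) and endothelial-like cells (14.3%) had 3 each, and endoneurial-like (8.89%), VSM/pericyte-like (6.7%) and immune-like cells (7.33%) had 0. The 9 were Sema3b, Sema3e and Sema6d in Schwann-like cells, Sema3c, Sema3d and Nrp1 in epineurial/perineurial-like cells, and Sema7a, Nrp1 and Nrp2 in endothelial-like cells.

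**Figure D1:**
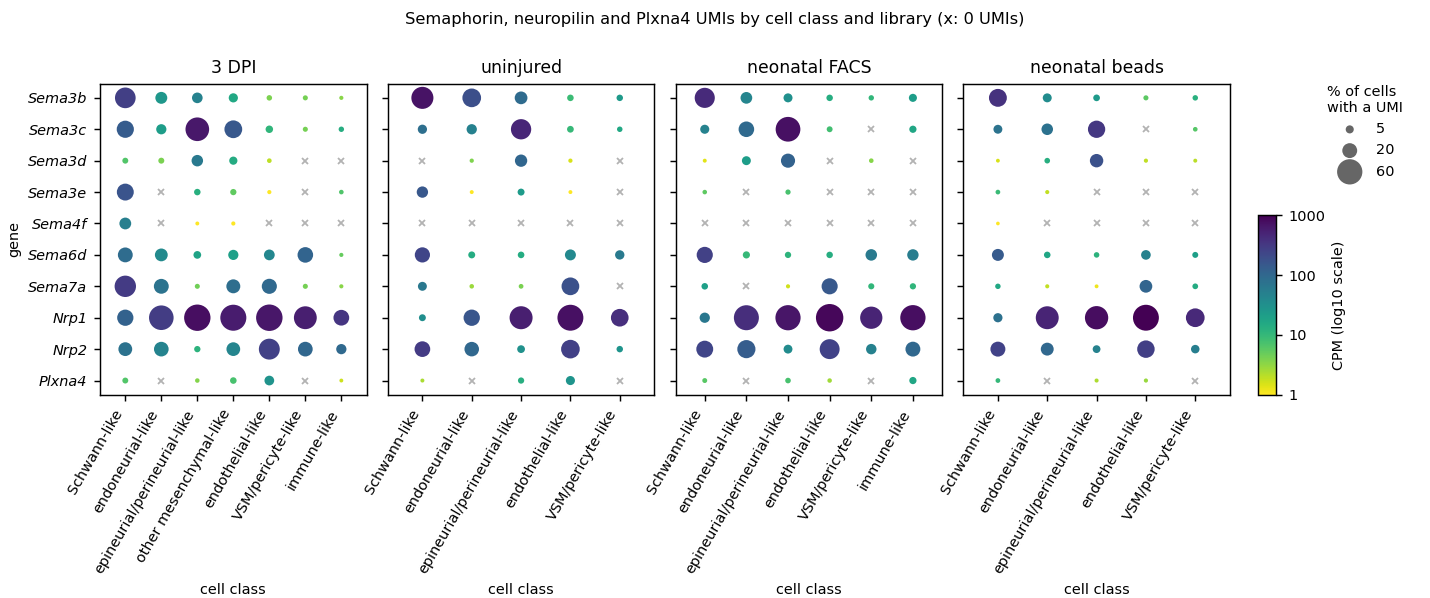
Each panel is 1 library, with genes in rows and cell classes of at least 50 cells in columns; dot area grows with the percent of cells with a UMI, colour gives CPM on a log scale, and a cross marks 0 UMIs. Sema3b was deepest in Schwann-like cells in every panel, Sema3c and Sema3d in epineurial/perineurial-like cells, and Sema4f was nearly confined to the Schwann-like column at 3 DPI.

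Sema3b, a secreted semaphorin, was higher in Schwann-like cells. It stood at 275 CPM in Schwann-like cells at 3 DPI, 708 in uninjured nerve, 442 in the neonatal FACS library and 376 in the neonatal beads library, with a UMI in 29.4% to 45.4% of cells. Endothelial-like cells of the same libraries held between 3.95 and 13.5 CPM, so the classes did not overlap in any library. The log2 fold against the other classes was 4.32 ± 0.24 (SE; edgeR adjusted p = 1.97e-11). Within the Schwann-like cells of uninjured nerve, the myelinating cluster was at 983 CPM and the non-myelinating cluster at 617 CPM, a ratio of 1.59 (1.24 to 2.04), and the neonatal FACS library gave 589 against 368 CPM, a ratio of 1.6 (1.39 to 1.84). Endoneurial-like cells were also called (log2 fold 1.26 ± 0.30, edgeR adjusted p = 0.00332) on 192 CPM in uninjured nerve and 26 to 43.5 CPM in the other libraries; the call was lost without the uninjured library, and the fold was -1.08 ± 0.53 against the summed other classes.

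Sema6d, a membrane-bound semaphorin, was also higher in Schwann-like cells (log2 fold 2.66 ± 0.34, edgeR adjusted p = 3.96e-06). It was at 88.7 CPM there at 3 DPI, 243 in uninjured nerve, 262 in the neonatal FACS library and 143 in the neonatal beads library. At 3 DPI the VSM/pericyte-like cells were at 111 CPM (72.7 to 163), an interval that overlapped that of the Schwann-like cells (63.7 to 120), and thinned to 500 UMIs per cell the order turned, at 108 CPM (29.5 to 277) against 157 CPM (75.5 to 290). The order of the Schwann-like clusters differed between the neonatal libraries and the uninjured adult library, a difference that was not tested. Neonatal myelinating cells were above non-myelinating cells, at 447 against 169 CPM in the FACS library (ratio 2.65, 2.2 to 3.2) and 546 against 159 CPM in the beads library (ratio 3.43, 2.12 to 5.28, from 31 myelinating cells), whereas in uninjured adult nerve the myelinating cells were at 136 CPM and the non-myelinating cells at 278 CPM (ratio 0.49, 0.257 to 0.867).

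Sema3e was another secreted semaphorin that was higher in Schwann-like cells. Its letters before the start of the gene are shown with those of Sema4f because the UMIs of both lay mostly in Schwann-like cells of the adult nerve, and with those of Nrp2, the 1 gene of the set that was at least 3-fold lower in Schwann-like cells at 3 DPI than in uninjured nerve. Sema3e lies at chr5:14025276-14256689, Sema4f at chr6:82911884-82939769 and Nrp2 at chr1:62703317-62818692. The sequences are the 250 bases upstream of the RefSeq start (GRCm38.p6, the assembly of mm10, which the submitters' processing notes name), at chr5:14025026-14025275 on the plus strand, chr6:82939770-82940019 on the minus strand and chr1:62703067-62703316 on the plus strand, each written 5′ to 3′ in the direction of the gene. Capitals mark matches to ACAANG on either strand, a core that Sox factors bind.
Sema3e: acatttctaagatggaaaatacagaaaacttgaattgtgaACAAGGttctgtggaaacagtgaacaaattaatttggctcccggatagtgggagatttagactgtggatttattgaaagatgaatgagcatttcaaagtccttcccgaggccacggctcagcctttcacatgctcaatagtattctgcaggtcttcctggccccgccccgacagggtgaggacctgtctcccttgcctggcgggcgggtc
Sema4f: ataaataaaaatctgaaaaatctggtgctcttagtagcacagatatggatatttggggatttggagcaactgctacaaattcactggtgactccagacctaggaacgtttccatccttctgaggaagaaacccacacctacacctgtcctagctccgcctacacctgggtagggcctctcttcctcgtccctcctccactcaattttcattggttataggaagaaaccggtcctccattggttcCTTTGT
Nrp2: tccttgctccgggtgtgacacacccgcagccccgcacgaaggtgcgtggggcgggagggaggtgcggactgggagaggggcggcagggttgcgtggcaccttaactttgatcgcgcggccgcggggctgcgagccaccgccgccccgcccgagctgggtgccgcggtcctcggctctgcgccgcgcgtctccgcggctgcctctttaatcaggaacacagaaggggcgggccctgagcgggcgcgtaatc
The Sema3e window held 1 match, 210 bases before the start, and the Sema4f window 1 match, 6 bases before the start; the Nrp2 window held none. The match was in 4 of 9 windows of the 8 genes with an upstream sequence in the table used, against 36.3% of 32851 windows of all genes, and no window of the 9 held the AP-1 letters TGANTCA, which were in 6.75% of all windows. The Sema3e and Sema4f windows had 48% and 46% G or C with 7 and 4 CpG, and the Nrp2 window 72.4% with 32 CpG, beside a median of 52.4% G or C over all windows. A match is a description of the letters and not evidence of binding.

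In Schwann-like cells Sema3e was at 164 CPM at 3 DPI and 152 CPM in uninjured nerve, but at 5.51 and 9.29 CPM in the neonatal FACS and beads libraries. The adult libraries were thus far above the neonatal ones: the ratio of uninjured to neonatal FACS was 27.5 (14.7 to 56) and that of 3 DPI to neonatal FACS 29.8 (16.1 to 60.3). In uninjured nerve all 63 UMIs came from non-myelinating Schwann-like cells, where 14.4% of 278 cells held one at 201 CPM. None of the 81 myelinating cells held one; taking 3 cells as the limit of a count of 0, this allows a share of cells with a UMI of up to 3.7%. The study used Sema3e as a marker of non-myelinating Schwann cells; it was left out of the markers here. Endothelial-like cells, at a similar or greater depth, held a UMI in 0.412% of cells at 3 DPI (median 1953 UMIs, against 1966 in Schwann-like cells) and in 0.239% in uninjured nerve (median 1875, against 983). The log2 fold of Schwann-like cells was 5.60 ± 0.55 (edgeR adjusted p = 3.98e-07), and the call was lost without the uninjured library. A second call, in epineurial/perineurial-like cells (log2 fold 3.04 ± 0.72, adjusted p = 0.00426), rested on 12.7 CPM at 3 DPI and 23.1 CPM in uninjured nerve, and was lost against the summed other classes, without the uninjured library and with DESeq2. Of the uninjured epineurial-like clusters, the one led by Pi16 and Krtdap held 113 CPM in 91 cells and the one led by Inmt and Sfrp4 held 4.31 CPM in 287 cells.

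Sema3c and Sema3d, both secreted, were genes of the outer nerve layers. Sema3c was at 636 CPM in epineurial/perineurial-like cells at 3 DPI, 481 in uninjured nerve, 747 in the neonatal FACS library and 330 in the neonatal beads library, with a UMI in 27.4% to 57.3% of cells. Endoneurial-like cells of the same libraries were between 22 and 94.3 CPM, below the outer layers in each library. The log2 fold was 4.92 ± 0.33 (edgeR adjusted p = 3.11e-10). A smaller fold in Schwann-like cells (1.31 ± 0.39, adjusted p = 0.0127) turned to -1.27 ± 0.44 against the summed other classes, and was lost without the 3 DPI library. In uninjured nerve the epineurial-like cells were not uniform. The cluster led by Pi16 and Krtdap stood at 1543 CPM with a UMI in 76.9% of 91 cells, and the cluster led by Inmt and Sfrp4 at 283 CPM with a UMI in 31.7% of 287 cells. At 3 DPI the same kind of split was 922 CPM in the cluster led by Cxcl13 and Smpd3 and 312 CPM in the cluster led by Inmt and Comp.

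Sema3d was at 60.5 CPM in epineurial/perineurial-like cells at 3 DPI, 106 in uninjured nerve, 116 in the neonatal FACS library and 178 in the neonatal beads library, and its highest level in any endoneurial-like group was 21.8 CPM. The log2 fold was 6.43 ± 0.35 (edgeR adjusted p = 3.31e-11). The call in endoneurial-like cells (2.06 ± 0.63, adjusted p = 0.0221) was lost against the summed other classes, where the fold was -1.48 ± 0.44, and without either neonatal library. Within the outer layers Sema3d and Sema3c had opposite orders. In uninjured nerve Sema3d was at 453 CPM in the 64 perineurial-like cells, which form the sleeve around each bundle of axons, and at 57.3 CPM in epineurial-like cells, a ratio of 7.9 (5.29 to 11.8), while Sema3c was at 74.1 and 538 CPM, a ratio of 0.138 (0.0626 to 0.264). The same ratios were 1.71 (1.17 to 2.53) and 0.664 (0.581 to 0.757) in the neonatal FACS library, and 4.15 (2.13 to 9.27) and 0.395 (0.309 to 0.506) in the neonatal beads library. No cluster was perineurial-like at 3 DPI.

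**Figure D2:**
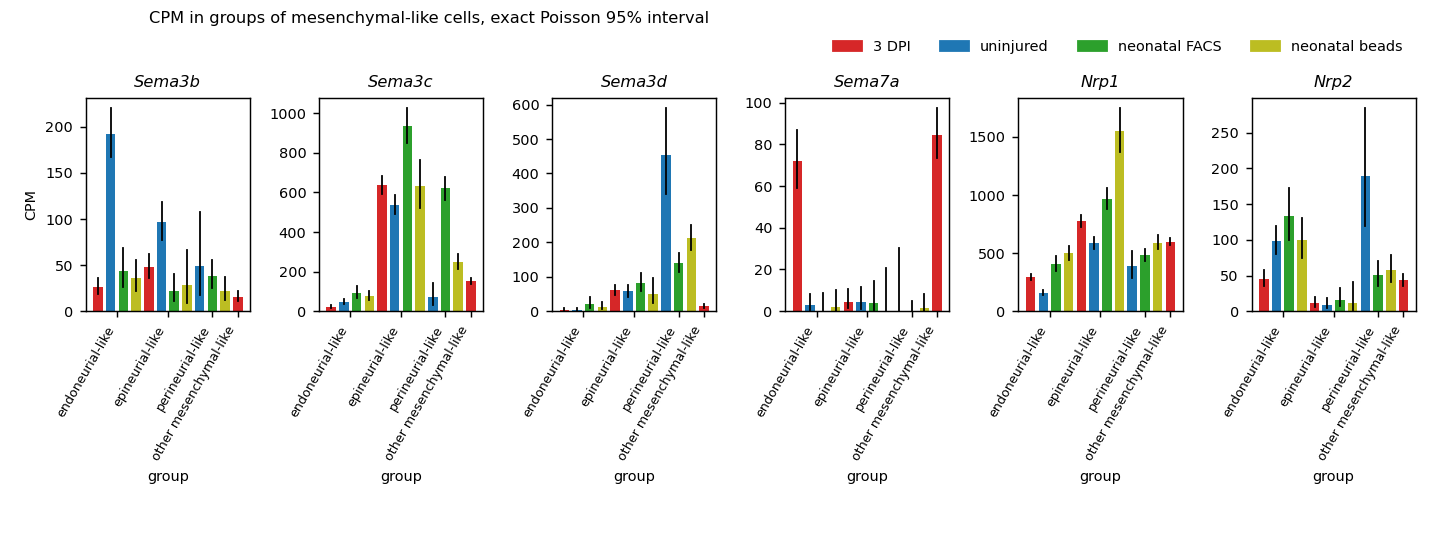
CPM of 6 genes in groups of mesenchymal-like cells, with bars coloured by library and lines giving exact Poisson 95% intervals; each panel has its own axis from 0. Sema3c was highest in epineurial-like cells, Sema3d and Nrp2 were higher in perineurial-like than epineurial-like cells, and Sema7a was at 71.9 CPM in endoneurial-like and 84.6 CPM in other mesenchymal-like cells of 3 DPI and at most 4.59 CPM in every other group plotted.

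Among the receptors, Nrp1 was broad and Nrp2 was split between vessels and Schwann-like cells. Nrp1 was at 652 to 1057 CPM in endothelial-like cells of the 4 libraries, with a UMI in 63.1% to 70.8% of cells, and at 563 to 791 CPM in epineurial/perineurial-like cells. Schwann-like cells were lowest in each library, from 33.7 to 117 CPM. The log2 folds were 1.26 ± 0.19 in endothelial-like cells (edgeR adjusted p = 1.98e-05), 1.22 ± 0.19 in epineurial/perineurial-like cells (adjusted p = 3.67e-05) and -3.12 ± 0.26 in Schwann-like cells (adjusted p = 7.13e-09). Nrp1 was also present in VSM/pericyte-like cells (394 to 561 CPM) and in macrophage/monocyte-like cells of 3 DPI, at 388 CPM (27.6% of 392 cells). The neonatal immune-like cluster was at 779 CPM in the FACS library (60% of 80 cells) and 126 CPM in the beads library (10.5% of 38 cells). Cma1, Tpsb2 and Cpa3 led that cluster, ahead of the macrophage/monocyte markers Lyz2 and C1qa. Its values may therefore not be those of macrophages alone, and its mix of cells was not tested.

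Nrp2 was between 254 and 276 CPM in endothelial-like cells of all 4 libraries. Schwann-like cells were close to it in uninjured (298 CPM), neonatal FACS (243 CPM) and neonatal beads nerve (255 CPM), and below it at 3 DPI (73.6 CPM). The log2 fold was 1.62 ± 0.26 in endothelial-like cells (edgeR adjusted p = 6.37e-05) and 1.07 ± 0.28 in Schwann-like cells (adjusted p = 0.00507). The Schwann-like call was lost against the summed other classes, without the uninjured library and without the neonatal FACS library. Within the Schwann-like cells Nrp2 went with the non-myelinating cells: myelinating cells were at 97.3 against 365 CPM in uninjured nerve (ratio 0.267, 0.125 to 0.509) and at 133 against 297 CPM in the neonatal FACS library (ratio 0.447, 0.354 to 0.561). In mesenchymal cells it was higher in perineurial-like than in epineurial-like cells, by 20.6-fold (8.92 to 53.4) in uninjured nerve, 3.13-fold (1.43 to 7.78) in the neonatal FACS library and 5.13-fold (1.33 to 43.9) in the neonatal beads library.

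The uninjured endothelial-like cells fell into 3 clusters in which Nrp1, Nrp2 and Sema7a had different orders. These genes were kept out of the clustering, and the values are a description. The 146 cells led by Gpihbp1 and Rbp7 had the most Nrp1, 1454 CPM, with 125 CPM of Nrp2 and 223 CPM of Sema7a. The 124 cells led by Selp and Sele, adhesion molecules of venules, had the most Nrp2, 505 CPM with a UMI in 60.5% of cells, with 634 CPM of Nrp1 and 5.61 CPM of Sema7a. The 149 cells led by Slco1a4 and Slc39a8 had the most Sema7a, 356 CPM with a UMI in 54.4% of cells, and the least Nrp1 (380 CPM) and Nrp2 (96 CPM). Plxna4 did not separate the clusters, at 28.4, 26.8 and 28 CPM. Some single endothelial-like cells held both neuropilins: 101 of 419 cells in uninjured nerve, 74 of 243 at 3 DPI, 41 of 144 in the neonatal FACS library and 106 of 482 in the neonatal beads library had a UMI of each. In uninjured nerve 265 cells held Nrp1 and 134 held Nrp2. Whether the joint counts differ from those that the separate counts would give was not tested.

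Sema7a was higher in endothelial-like cells across the libraries (log2 fold 4.18 ± 0.57, edgeR adjusted p = 7.27e-06), at 97.8 CPM at 3 DPI, 181 in uninjured nerve, 149 in the neonatal FACS library and 108 in the neonatal beads library. Its call in Schwann-like cells (2.26 ± 0.56, adjusted p = 0.00386) was lost against the summed other classes (log2 fold 0.13 ± 0.60). The Schwann-like level spanned 303 CPM at 3 DPI, 62.6 in uninjured nerve, 20.2 in the neonatal FACS library and 16.1 in the neonatal beads library, so that the 3 DPI level was 15 times (10.6 to 21.5) that of the neonatal FACS library. Plxna4 was the weakest receptor. It was at 28.6 and 27.8 CPM in adult endothelial-like cells and at 2.7 and 2.89 CPM in neonatal endothelial-like cells, from 1 and 3 UMIs. Its call (log2 fold 3.35 ± 0.81, adjusted p = 0.00556) was lost against the summed other classes and without either adult library. No endoneurial-like or VSM/pericyte-like cell of any library held a Plxna4 UMI; in the 416 uninjured endoneurial-like cells the same limit of 3 cells allows a share of cells with a UMI of up to 0.721%.

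The next comparison asked how levels in each class of the injured distal nerve differed from uninjured adult nerve. A gene was called where the CPM differed at least 3-fold and at least 2% of the cells of the higher group held a UMI. In Schwann-like cells (141 at 3 DPI, 359 uninjured) 3 of the 10 genes were called higher, a call that 11% of 10435 genes met, and 1 was called lower, which 7.32% met. The all-gene median of the log2 ratio was 0.18. Median UMIs were 1966 per cell at 3 DPI and 983 in uninjured nerve, so shares of cells are not comparable as they stand and CPM is used.

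Sema7a in Schwann-like cells was at 303 CPM (140 UMIs) at 3 DPI and 62.6 CPM (26 UMIs) in uninjured nerve, a ratio of 4.84 (3.17 to 7.67). A UMI was found in 42.6% of cells at 3 DPI and 6.41% in uninjured nerve, and in 15% and 2.34% after each cell was thinned to 500 UMIs, which left out 14 and 17 shallower cells. Nrp1 was at 117 against 33.7 CPM, a ratio of 3.47 (1.9 to 6.76), which was 2.93 when cells with high doublet scores were kept and then no longer called. Sema4f had 24 UMIs in 17 cells at 3 DPI (51.9 CPM, 12.1% of cells) and 0 UMIs in uninjured nerve, at least 7.19-fold higher when the uninjured level is set to 3 UMIs. The whole remainder of the 3 DPI library held 3 Sema4f UMIs among the classes named, 1 in epineurial/perineurial-like and 2 in other mesenchymal-like cells, and the 3661 Schwann-like cells of the neonatal beads library held 2. Nrp2 was lower, at 73.6 against 298 CPM, a ratio of 0.246 (0.163 to 0.363), or 4.06-fold.

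The remaining genes in Schwann-like cells were not called. Sema3e was at 164 and 152 CPM, a ratio of 1.08 (0.766 to 1.54), although its share of cells was 26.2% and 11.1%; thinned to 500 UMIs the shares were 9.45% (4.98 to 15.9) and 5.26% (3.15 to 8.19), with overlapping intervals. Sema3b (0.388) and Sema6d (0.365) were lower by less than 3-fold, and Sema3c was at 1.67 (1.08 to 2.61). Sema3d and Plxna4 had 3 UMIs each at 3 DPI, and 0 and 1 in uninjured nerve. No myelinating cluster was found at 3 DPI. Set against the non-myelinating uninjured cells alone, the ratios were 3.64 (2.38 to 5.77) for Sema7a, 3.32 for Nrp1, at least 5.41 for Sema4f, 0.202 (0.133 to 0.298) for Nrp2 and 0.816 (0.577 to 1.16) for Sema3e, and Sema6d, at 0.319 (0.214 to 0.467), was then also called lower. Within 3 DPI, 21 of the 141 Schwann-like cells held both Sema3e and Sema7a, of 37 and 60 with each, and 13 of the 17 cells with Sema4f held Sema7a. These joint counts were not tested against the separate counts, and a cell with more UMIs is more likely to hold both genes.

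**Figure D3:**
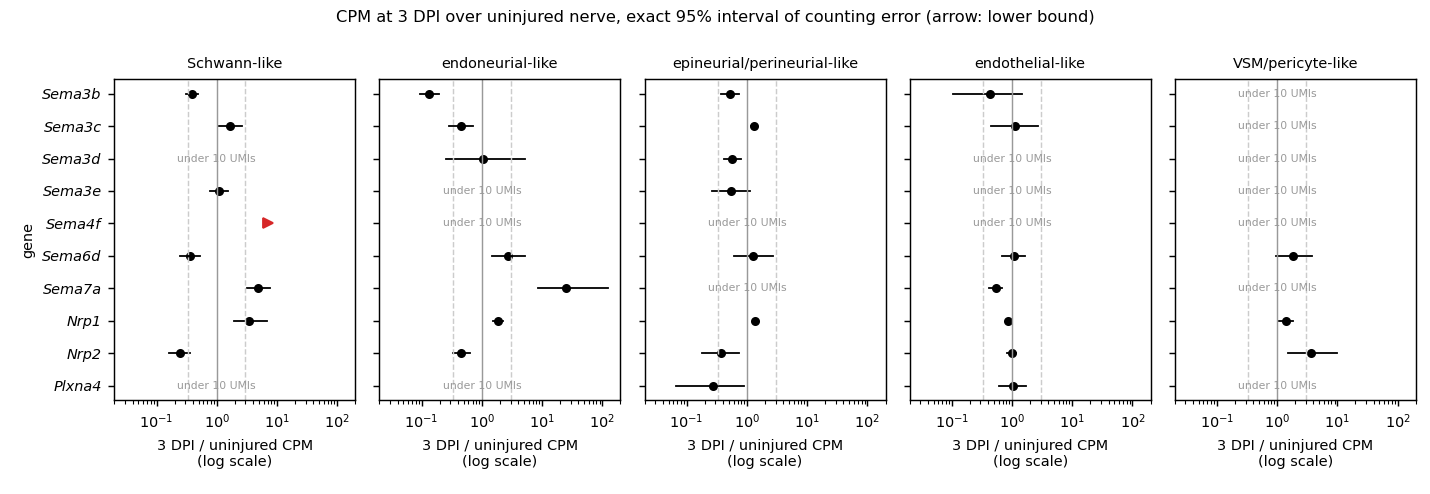
Ratio of CPM at 3 DPI to CPM in uninjured nerve on a log axis, 1 panel for each cell class; points are ratios, lines exact 95% intervals of counting error, the arrow a lower bound, the solid line a ratio of 1 and dashed lines 3-fold. Sema7a lay right of the 3-fold line in Schwann-like (4.84) and endoneurial-like cells (25.4), and Nrp2 left of it in Schwann-like cells (0.246).

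**Figure D4:**
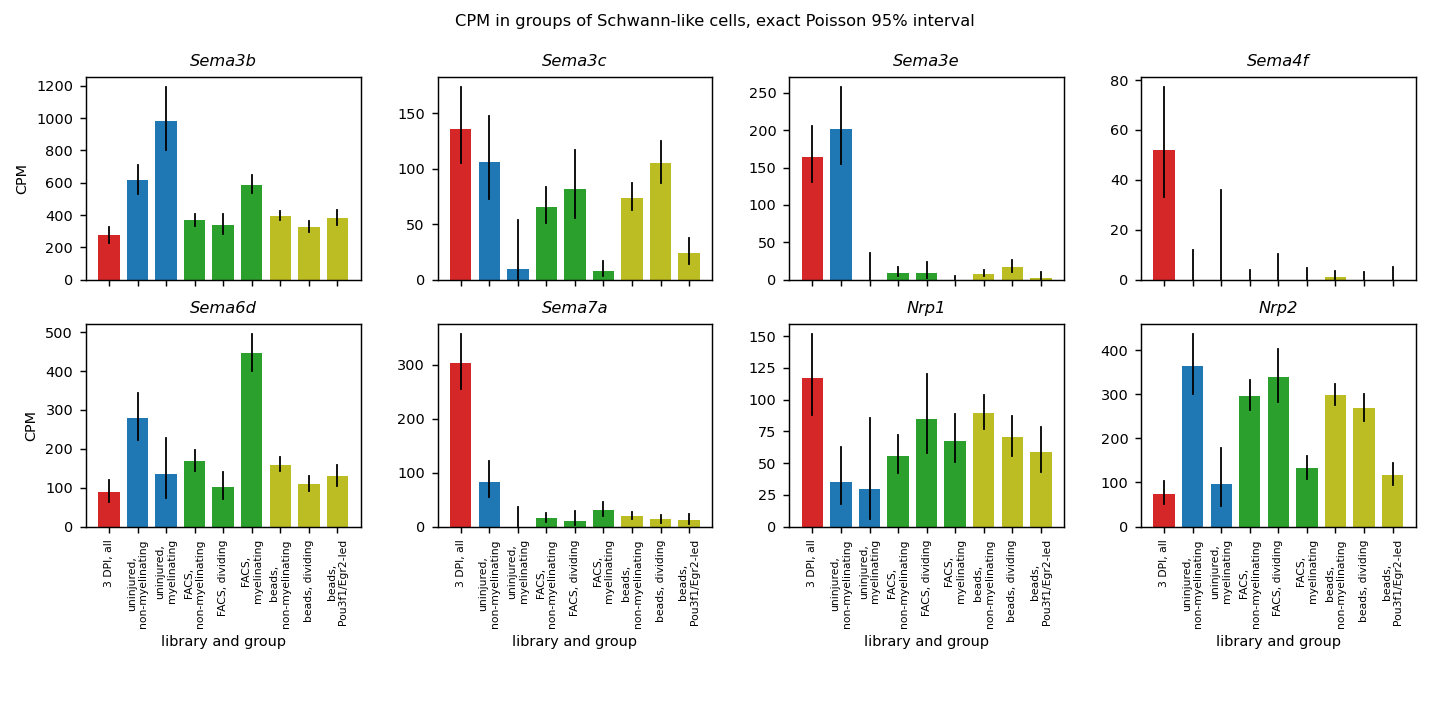
CPM of 8 genes in groups of Schwann-like cells with at least 50 cells, coloured by library (red 3 DPI, blue uninjured, green neonatal FACS, olive neonatal beads), with exact Poisson 95% intervals; each panel has its own axis from 0. Sema4f appeared at 3 DPI (51.9 CPM), Sema3e at 3 DPI and in uninjured non-myelinating cells (164 and 201 CPM), and Nrp2 was lower at 3 DPI (73.6 CPM) than in any non-myelinating group.

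In endoneurial-like cells (275 at 3 DPI, 416 uninjured), the mesenchymal cells that lie among the axons, 1 of the 10 genes was called higher, where 10% of 11143 genes were, and 1 lower, where 4.04% were. Sema7a had 108 UMIs in 55 cells at 3 DPI (71.9 CPM, 20% of cells) and 3 UMIs in 3 cells in uninjured nerve (2.82 CPM, 0.721%), a ratio of 25.4 (8.48 to 125). The neonatal endoneurial-like cells held 0 Sema7a UMIs in the FACS library and 1 in the beads library. The median depth was 4107 UMIs at 3 DPI and 2178 in uninjured nerve; thinned to 500 UMIs, 5 of 256 and 0 of 411 cells held a UMI (1.95%, under the 2% required). In epineurial/perineurial-like cells of the same 3 DPI library the share was 1.17% (median 2087.5 UMIs). Summed endothelial markers in endoneurial-like cells were at 108 CPM at 3 DPI and 112 CPM in uninjured nerve, and summed Schwann markers at 124 and 324 CPM. Sema7a was also found in the other mesenchymal-like cells of 3 DPI, at 18.9 CPM in the 317 cells led by C1qtnf3 and Dlk1 and at 142 CPM in the 165 cells led by Serpinb2 and the mitotic gene Top2a, 40% of which held a UMI (median 5794 UMIs).

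Sema3b in endoneurial-like cells was lower at 3 DPI, at 26 CPM against 192 CPM, a ratio of 0.135 (0.0934 to 0.191) or 7.4-fold. Its uninjured share was 32.2% of 416 cells, and the neonatal endoneurial-like cells were at 43.5 and 35.5 CPM. Schwann markers summed to 324 CPM in the uninjured and 124 CPM in the 3 DPI endoneurial-like cells, and 3 of the 5 reached 2% of cells in both. Among them, Sox10, the transcription factor that defines Schwann cells, was at 1.88 CPM in uninjured endoneurial-like and 462 CPM in uninjured Schwann-like cells, and the calcium-binding protein gene S100b at 168 and 421 CPM; Sema3b was at 192 and 708 CPM. The remaining genes were not called: Sema6d (2.69) and Nrp1 (1.84, 293 against 159 CPM) were above 1, and Sema3c (0.449) and Nrp2 (0.458) below. The all-gene median of the log2 ratio was 0.28, and with TMM factors in place of library totals the same genes were called in each class.

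The vascular and outer-layer classes gave few calls, and immune-like cells, with 19 in uninjured nerve, were not compared. In endothelial-like cells 0 of the 10 genes were called in either direction, where 6.17% of 11169 genes were called higher and 2.99% lower. Nrp1, Nrp2 and Plxna4 were at 0.865, 0.984 and 1.03 times their uninjured level, and Sema7a at 0.539. In VSM/pericyte-like cells (82 and 182 cells) Nrp2 was called higher, at 103 against 28.1 CPM (ratio 3.65, 1.53 to 10), where 9.57% of 10134 genes were, and Sema3b was called lower on 1 against 6 UMIs with an interval that held 1 (ratio 0.178, 0.00386 to 1.46), where 6.22% were. In epineurial/perineurial-like cells 0 were called higher, where 3.34% of 9938 genes were, and Plxna4 was called lower on 4 against 13 UMIs (ratio 0.276, 0.0656 to 0.895), where 2.58% were. With the epineurial-like cells alone, which both libraries held, Plxna4 was again the 1 gene called. Nrp2 turned from 0.377 (0.181 to 0.741) over the whole class to 1.28 (0.492 to 3.57) with epineurial-like cells alone, since its uninjured UMIs lay mostly in perineurial-like cells (23 of 31). At a clustering resolution of 0.8 Plxna4 was not called, and Sema3d (0.268), Sema3e (0.185) and Nrp2 (0.127) were called lower instead.

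The 2 neonatal preparations differed in age and isolation and are set side by side. In Schwann-like cells Sema6d was 1.83 times (1.62 to 2.05) as high in the FACS as in the beads library, and Sema3c 0.65 times (0.514 to 0.816). The libraries held different Schwann-like groups: 443 of 1220 cells were myelinating in the FACS library and 31 of 3661 in the beads library. Among non-myelinating cells alone Sema6d was at 169 and 159 CPM, and Sema3c at 65.7 and 74 CPM. These cells too lay mostly in different clusters. FACS cells were 5.39% of the cluster led by Scn7a and Rxrg and 96.4% of that led by Ttyh1 and Ddit4. In epineurial/perineurial-like cells Sema3c was 2.26 times (1.98 to 2.6) as high in the FACS library. Dividing Schwann-like cells held 82 and 105 CPM of Sema3c, and 339 and 269 CPM of Nrp2.

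The wider family of 31 semaphorins, plexins and neuropilins, of which the 10 genes are part, had 28 genes tested between classes. In Schwann-like cells 10 were called higher (16.6% of all genes, median log2 fold 0.55), and in endothelial-like cells also 10 (17.4%, median -0.85). Epineurial/perineurial-like cells had 8 (17.4% of all genes, median 0.35) and endoneurial-like cells 7 (15.4%, median 0.01). Immune-like cells had 5 (14% of all genes, median -0.57) and VSM/pericyte-like cells 3 (11.5%, median -0.73), beside all-gene medians of -0.11 to 0.03. Against the summed other classes the counts in the same order were 7 of 27, 9 of 23, 5 of 27, 1 of 27, 4 of 29 and 2 of 27. The shares of all genes called there were 12.8%, 14.3%, 10.9%, 8.89%, 7.33% and 6.7%. Plxnd1, the receptor of Sema3e, was called in endothelial-like and immune-like cells, the latter lost against the summed other classes. Plxnc1, a receptor of Sema7a, was called in endoneurial-like and immune-like cells, and Plxnb3 in Schwann-like cells. Plxnb1 was called in Schwann-like and VSM/pericyte-like cells, the latter lost against the summed other classes.

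Of 8 other neuropilin ligands and partners, 4 were called in endothelial-like cells, the receptors Flt1, Flt4 and Kdr and the ligand Vegfc, all kept against the summed other classes. The ligands Vegfa and Vegfc were called in epineurial/perineurial-like cells, where Vegfa alone was kept, and Flt1 and the ligand Pgf in VSM/pericyte-like cells, where neither was kept. In Schwann-like cells 0 were called by edgeR or DESeq2, also at an unadjusted p of 0.05. Of 17 tested genes that act downstream of semaphorin receptors, 6 were called in Schwann-like cells, among them the kinase Fyn and the collapsin response mediators Dpysl4 and Dpysl5. Their median log2 fold there was 0.00, beside 16.6% of all genes called. VSM/pericyte-like cells had 7 (11.5% of all genes), epineurial/perineurial-like cells 6 (17.4%), endothelial-like cells 3 (17.4%), endoneurial-like cells 2 (15.4%) and immune-like cells 1 (14%). Against the summed other classes Schwann-like cells had 5 of 17 (12.8% of all genes). Of 15 tested in each other class, VSM/pericyte-like cells had 5 (6.7% of all genes) and epineurial/perineurial-like cells 3 (10.9%). Endothelial-like cells had 3 (14.3%), endoneurial-like cells 1 (8.89%) and immune-like cells 1 (7.33%).

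Between 3 DPI and uninjured nerve, 4 of 24 family genes were called higher in Schwann-like cells, Sema4b being the addition to the members named above (36.8 against 7.22 CPM, ratio 5.09, 1.47 to 27.1), and 4 lower, with Plxnb1 (17.3 against 65 CPM, ratio 0.266, 0.105 to 0.603), Sema5a and Sema6c beside Nrp2. These ratios were taken over the whole class, and a myelinating cluster was found in uninjured nerve but not at 3 DPI. In the study, Sema5a and Sema6c were detected in a larger share of uninjured myelinating than of uninjured non-myelinating or injured Schwann cells. The family median log2 ratio was 0.26 against 0.18 for all genes, of which 11% were called higher and 7.32% lower. Of 14 downstream genes compared in Schwann-like cells, 2 were called higher, where 11% of all genes were, and 1 lower, where 7.32% were, with a median log2 ratio of -0.19. Those higher were the collapsin response mediator Dpysl3, at 268 against 55.4 CPM (ratio 4.85, 3.09 to 7.93), and Mical2, with 11 against 3 UMIs (ratio 3.3, 0.871 to 18.4). The gene called lower was Dpysl4, another collapsin response mediator, at 13 against 48.1 CPM (ratio 0.27, 0.0886 to 0.696). In endoneurial-like cells 3 of 22 family genes were called higher (Sema3f, Plxnb2 and Sema7a), where 10% of all genes were. The 2 called lower were Plxnc1 and Sema3b, where 4.04% of all genes were. The family median there was -0.00 against 0.28 for all genes.

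Patterns were compared over the 23 sums of a class and a library by Pearson correlation of log2(CPM + 10), as a description; the sums of a library share its depth and its free RNA. Sema3b ran most closely with Bicd1 (r = 0.948) and Sema3c with Ephb2 (0.908). Sema3d ran with Mfap4 (0.957), Sema3e with Gfap (0.92), Sema6d with Ppm1l (0.854) and Sema7a with Eva1c (0.892). Nrp1 ran with Zyx (0.849), Nrp2 with Magi1 (0.849) and Plxna4 with Insr (0.748). Sema4f, with 29 UMIs in all, was below the 100 UMIs required.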

How the data were processed

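For this work 4 single-cell libraries of mouse sciatic nerve were used, each given by the authors as a deposited table of UMI counts per gene and barcode, not normalized. Per the labels the libraries follow the Drop-seq protocol, and the submitters' processing notes name mm10; the aligner was not stated in the labels or file headers. One library was available for each group, so groups have no replicates. No per-sample column was left out. Barcodes with at least 200 genes, at most 10% mitochondrial and at most 5% haemoglobin UMIs were kept, and the 5% with the highest scrublet doublet score in each library (scanpy 1.11.5) were removed. Counts were scaled with scran 1.30.0, and 2000 variable genes, 20 components and a resolution of 0.4 were used in Seurat 5.3.0, separately for 3 DPI, uninjured and both neonatal libraries together. Clusters were named from marker genes; a class needed 50 cells.

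UMIs were summed by class and library (22 sums, 13 residual degrees of freedom) and tested with edgeR 4.0.16 (glmQLFit, TMM, library as a term); DESeq2 1.42.0 was an alternative. The sums test classes within the same libraries. The p-values weigh a class difference against the spread that remains after the class and library terms. As no group had a replicate, that spread also holds differences of a class between conditions and ages. Conditions were compared without a test: shares with Clopper-Pearson, CPM with Poisson and ratios of CPM with conditional binomial intervals at 95%; a group at 0 was set to 3 UMIs for a bound. The edgeR step alone was tried on simulated counts, with some genes raised in the Schwann-like sums. Alternatives were another resolution, at least 500 genes, at most 5% mitochondrial, no doublet removal, thinning to 500 UMIs, other normalizations, leaving out each library, and 3 comparisons added after the data were seen: the summed other classes, non-myelinating Schwann-like cells alone and epineurial-like cells alone. All 10 genes are named; other genes are named where they belong to the family, downstream or neuropilin partner lists, or are the nearest in pattern (among genes of at least 100 UMIs outside these lists); of the 3 nearest the first is given, and genes that lead a cluster are named as labels of it. The genes, lists and tests were chosen with earlier results of these data known. RefSeq upstream windows were matched by symbol for 8 of the 10 genes.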

Additional observations from a re-analysis of the deposited data

Results flagged for a closer look

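For 5 genes, Sema3c, Sema6d, Sema7a, Nrp1 and Nrp2, the ratios of 3 DPI to uninjured CPM lay on opposite sides of 1 in different classes, with counting intervals that did not reach 1 on either side. Each ratio rests on 1 library per condition, and the differences between classes were not tested. Sema7a was 25.4 in endoneurial-like and 0.539 in endothelial-like cells. Nrp2 was 3.65 in VSM/pericyte-like and 0.246 in Schwann-like cells. Nrp1 was 3.47 in Schwann-like and 0.865 in endothelial-like cells. Sema6d was 2.69 in endoneurial-like and 0.365 in Schwann-like cells. Sema3c was 1.67 in Schwann-like and 0.449 in endoneurial-like cells. The Schwann-like ratios are over the whole class, in which uninjured nerve had a myelinating cluster and 3 DPI had none.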

How the results depend on the processing

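The 16 calls of a gene in a class became 9 against the summed other classes, and between 11 and 16 when 1 library was left out; the 11 were without the uninjured library. DESeq2 also gave 16, of which 15 were shared, and 21 were called without the low count filter. Between 3 DPI and uninjured nerve, the 4 calls in Schwann-like cells became 2 after thinning to 500 UMIs and 7 at a fold of 2, the 2 calls in endoneurial-like cells became 5 at a fold of 2, and the 3 calls in the other classes became 5 at a resolution of 0.8, 6 without doublet removal, 0 after thinning and 5 at a fold of 2. After thinning, Sema7a (6.73) and Nrp2 (0.15) were still called in Schwann-like cells. In endoneurial-like cells Sema3b (0.104) was still called, the Sema7a call was lost and Sema6d (4.82) was called in its place. By the ratio of shares, at unequal depth, 5 genes were higher and 0 lower in Schwann-like cells, where 4355 of 10435 genes were higher. In endoneurial-like cells 3 were higher and 0 lower, where 3332 of 11143 genes were higher. Nrp2 and Sema3b were then no longer called lower in these classes. Pairs with a UMI in at least 2% of cells were 27 in place of 44 at 3 DPI, 20 in place of 31 in uninjured nerve and 23 in place of 35 in the neonatal FACS library after thinning, which leaves fewer UMIs. Of 132 levels by class, the number that moved beyond the counting intervals of the main levels was 0 with at least 500 genes, 0 at 5% mitochondrial, 1 without doublet removal, 6 at a resolution of 0.8 and 64 after thinning. The counting error of the altered level itself, which is larger after thinning, was not included. The cause was not tested. Ratios that rest on few UMIs had wide intervals, such as 0.0656 to 0.895 for Plxna4 in epineurial/perineurial-like cells. No paired analysis was possible because each group has 1 library.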
